A study of Gossypium hirsutum with 6 samples.

Results

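The transcripts described here are 8 assembled cotton mRNAs that the study predicted as targets of the microRNA miR166. They were taken by name from 156846 transcripts. The study listed them through microRNAs that it called changed between these lines, and it singled out the ABF transcript comp138319_c0_seq1 for its mRNA level in A3–A9, so that difference is a description and not an independent finding. They are annotated as a homeobox-leucine zipper protein (HD-ZIP, comp45076_c0_seq1), 2 ABA responsive element binding factors (ABF, comp138319_c0_seq1 and comp30734_c0_seq3), a peroxidase (comp44152_c0_seq7), ribonucleoside-diphosphate reductase subunit M2 (comp35879_c0_seq3), the ribosomal proteins S2e (comp31710_c0_seq1) and L9e (comp40295_c0_seq6), and an Xaa-Pro dipeptidase (comp41630_c0_seq1). All 8 had a value in every library. In the assembly each belongs to its own component, a group of related transcripts that can share sequence, and the 8 components hold 38 transcripts.

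Stem apexes of upland cotton (Gossypium hirsutum) were sampled at the stage when the fifth true leaf had formed. The wild type was Ari971 (A9). Its dwarf mutant Ari1327 (A1) and its tall-culm mutant Ari3697 (A3) both came from γ-ray irradiation of Ari971 with a cobalt source. Irradiation can change many genes at once, and the changed genes of these mutants are not named in the sources used here. There was 1 mRNA library for each line, and these libraries give no replicate check of any difference below. The study's PCR measurements were not analysed here. The methods mention pooling RNA of the lines, whereas the genotype labels give each library to 1 line, and each was taken as the library of that line. Small RNA libraries were not analysed here, so the level of miR166 itself is not part of these values.

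In plants, miR166 and its close relative miR165 pair with messenger RNAs of class III HD-ZIP transcription factors and direct their cleavage. In Arabidopsis these factors set the upper side of the leaf, maintain the shoot apical meristem and pattern the vascular tissue, and the microRNA restricts where their mRNA accumulates. ABF proteins are bZIP transcription factors that bind ABA-responsive elements in promoters and carry the response to the hormone abscisic acid. The other annotated products have general roles: peroxidases act on hydrogen peroxide, in the cell wall among other places, ribonucleotide reductase makes deoxyribonucleotides for DNA synthesis, S2e and L9e are parts of the ribosome, and Xaa-Pro dipeptidases split dipeptides that end in proline. The predictions pair 5 of the 8, namely the HD-ZIP, both ABF, the peroxidase and the S2e transcripts, with both gma-miR166u and gma-miR166h-3p.

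The study's own primers for these 2 microRNAs and for ABF are shown because they define which molecules its PCR assays could tell apart. They are written from the 5′ end to the 3′ end, and capitals mark the stretch that the primer list sets off from the common stem-loop or tail.
miR166u RT-primer: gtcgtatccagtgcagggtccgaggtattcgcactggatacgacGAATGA
miR166h-3p RT-primer: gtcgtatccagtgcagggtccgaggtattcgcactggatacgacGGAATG
miR166u forward primer: ccgcgTCTCGGACCAG
miR166h-3p forward primer: ccgcgTCTCGGACCAG
ABF forward primer: taaggcaggtgtagttcggg
ABF reverse primer: tcccataattggcctgggaa
The forward primers of the 2 microRNAs are identical. Their RT-primers differ only in the last 6 bases, whose reverse complements are TCATTC for miR166u and CATTCC for miR166h-3p. The list does not say which of the ABF transcripts its primer pair was made for, and transcript sequences were not used here.

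Levels are given in RPKM, which is read numbers divided by transcript length and by all mapped reads of the library, so that they can be compared between transcripts. The 8 transcripts spanned a wide range. The lowest and highest values were 1.12 and 79.93 RPKM in A1, 1.28 and 71.28 RPKM in A3, and 0.69 and 76.82 RPKM in A9. For comparison, the median of all transcripts was 1.58, 1.60 and 1.55 RPKM in A1, A3 and A9. S2e was the highest of the 8 in every library and L9e the next. Of the 8, 7 had at least 1 RPKM in every library, as did 84098 of all transcripts, and the exception was the ABF transcript comp138319_c0_seq1 with 0.69 RPKM in A9. No line was high for the set as a whole: A1 held the highest value of 3 transcripts, A3 of 3 and A9 of 2.

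**Figure D1:**
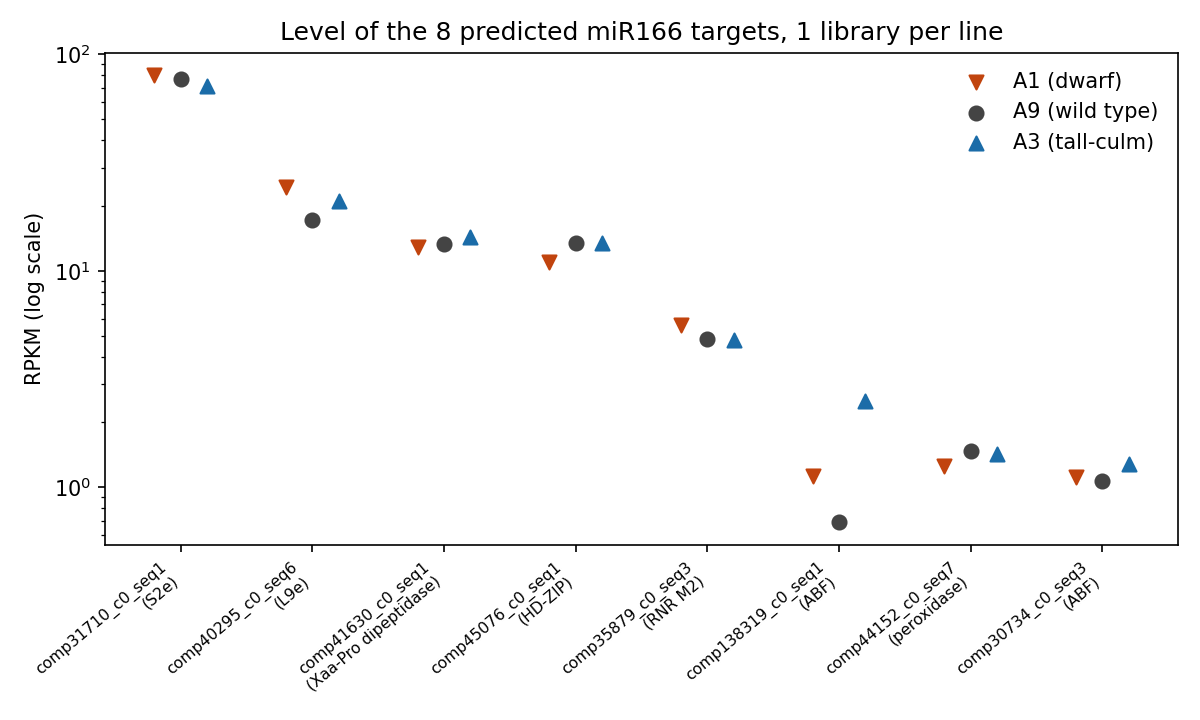
Level of the 8 predicted miR166 targets in RPKM (vertical axis, logarithmic) in the dwarf A1, the wild type A9 and the tall-culm A3, 1 point per library, ordered by mean level. The 3 points of each transcript lie close together except for the ABF transcript comp138319_c0_seq1, at 0.69 RPKM in A9 and 2.51 RPKM in A3.

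Lines were compared by the log2 ratio of their RPKM values, and the threshold was a size of 1 or more, that is, a doubling in either direction. Both A1–A9 and A3–A9 use the 1 library of A9, so a high or low value there moves both. In A1–A9, 0 of the 8 were past the threshold, against 21.1% of all transcripts. In A3–A9, 1 of the 8 was, against 19.5%. In A1–A3, the direct comparison of the mutants, 1 of the 8 was, lower in A1, against 19.3% of all transcripts. The share of all transcripts depends on level, and among those with at least 1 RPKM in every library it was 6.15%, 4.64% and 3.89% in A1–A9, A3–A9 and A1–A3. The transcript past the threshold was comp138319_c0_seq1 in both comparisons, and it lies below that minimum in A9. The median log2 ratio of the 8 was 0.06 in A1–A9, 0.05 in A3–A9 and -0.17 in A1–A3, and over all transcripts it was 0, 0.02 and -0.03.

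**Figure D2:**
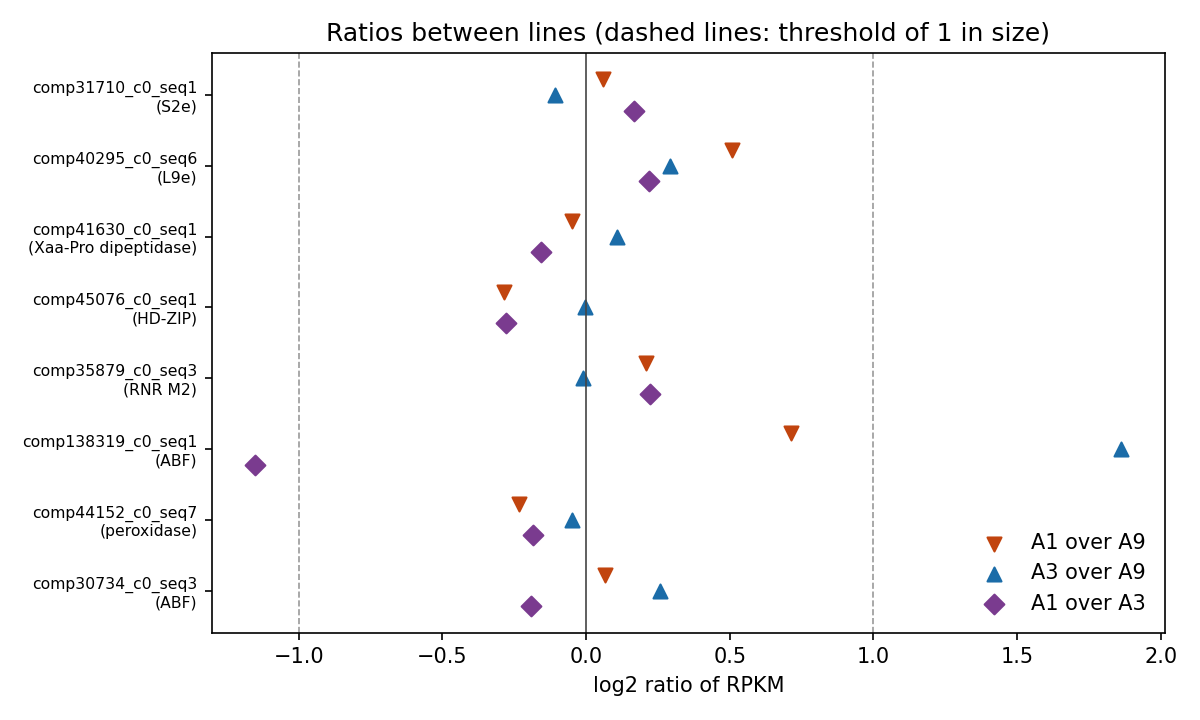
Log2 ratio of RPKM (horizontal axis) of the 8 transcripts for A1 over A9, A3 over A9 and A1 over A3, with dashed lines at the threshold of 1 in size. Only comp138319_c0_seq1 lies outside the dashed lines, at 1.86 for A3 over A9 and -1.15 for A1 over A3.

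The HD-ZIP transcript comp45076_c0_seq1, the annotated product nearest to the known targets of miR166, had 11.04 RPKM in A1, 13.4 RPKM in A3 and 13.45 RPKM in A9. The tall-culm mutant and the wild type thus had nearly the same level, and the dwarf mutant was lower than both. The log2 ratio was -0.28 in A1–A9, -0.01 in A3–A9 and -0.28 in A1–A3. A ratio at least as large in size was found for 45.9% of the 13204 transcripts with a mean of 10 to 50 RPKM in A1–A9, and for 28.7% of them in A1–A3.

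Its component comp45076_c0 holds 8 transcripts, and none of them reached 20% of the summed RPKM in any library. The 2 highest others were comp45076_c0_seq7, with 11.42, 13.54 and 13.5 RPKM in A1, A3 and A9, and comp45076_c0_seq8, with 11.06, 13.56 and 13.61 RPKM. These and the predicted target have nearly equal values in each library, and the predicted target ranked below these 2 in all 3 libraries. It held 17.4%, 18.4% and 16.9% of the summed RPKM of the component in A1, A3 and A9.

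In A1, all 8 transcripts of the HD-ZIP component were lower than in A9, with log2 ratios from -0.63 to -0.20. The component summed to 63.5 RPKM in A1, 72.6 RPKM in A3 and 79.6 RPKM in A9. In A3, 6 of the 8 were lower than in A9 and 2 higher, from -0.78 to 0.33, so the transcripts of this component did not move together there. The most different were comp45076_c0_seq5, with 3.26, 2.9 and 4.99 RPKM in A1, A3 and A9, and comp45076_c0_seq2, with 5.61, 9.6 and 7.65 RPKM, both singled out after their values were seen. Of the summed RPKM, comp45076_c0_seq2 held 8.84%, 13.2% and 9.61% in the same order. The group comp45076_c1, which carries the same number and is counted apart here, has 1 transcript. It had 2.54, 2.19 and 1.91 RPKM in A1, A3 and A9, so it was higher in A1 than in A9, unlike the 8 of comp45076_c0. Transcripts of a component can share reads, so their values are not independent measurements.

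A further transcript with the HD-ZIP annotation, comp31698_c0_seq1, is listed as a target of another microRNA. It had 24.51 RPKM in A1, 23.42 RPKM in A3 and 24.33 RPKM in A9. Its 3 levels lie closer together than those of comp45076_c0_seq1, with log2 ratios of 0.01 in A1–A9 and -0.05 in A3–A9.

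The ABF transcript comp138319_c0_seq1 had 1.13 RPKM in A1, 2.51 RPKM in A3 and 0.69 RPKM in A9. Its value was highest in the tall-culm mutant and lowest in the wild type, which is not the order of plant height. The places of A1 and A9 rest on few reads, as given below, so that order is not settled. The log2 ratio was 0.71 in A1–A9, 1.86 in A3–A9 and -1.15 in A1–A3. With 1 added to every RPKM these became 0.33, 1.05 and -0.72, so the difference between the mutants was then below the threshold. It is the 1 transcript of its component.

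Ratios past the threshold were frequent at this level of expression, and ratios as large as 1.86 in A3–A9 were less so. Of the 35600 transcripts with a mean of 1 to 2 RPKM, 21.4% were past the threshold in A1–A9, 19.9% in A3–A9 and 19.8% in A1–A3. A ratio at least as large in size as that of comp138319_c0_seq1 was found for 30.9% of them in A1–A9, 6.94% in A3–A9 and 16.2% in A1–A3. The plot of ratio against level shows this spread together with that at other levels. In A1–A9, 5.16% of transcripts with a mean between 10 and 50 RPKM were past the threshold, and 8.24% of those at 50 RPKM or more.

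**Figure D3:**
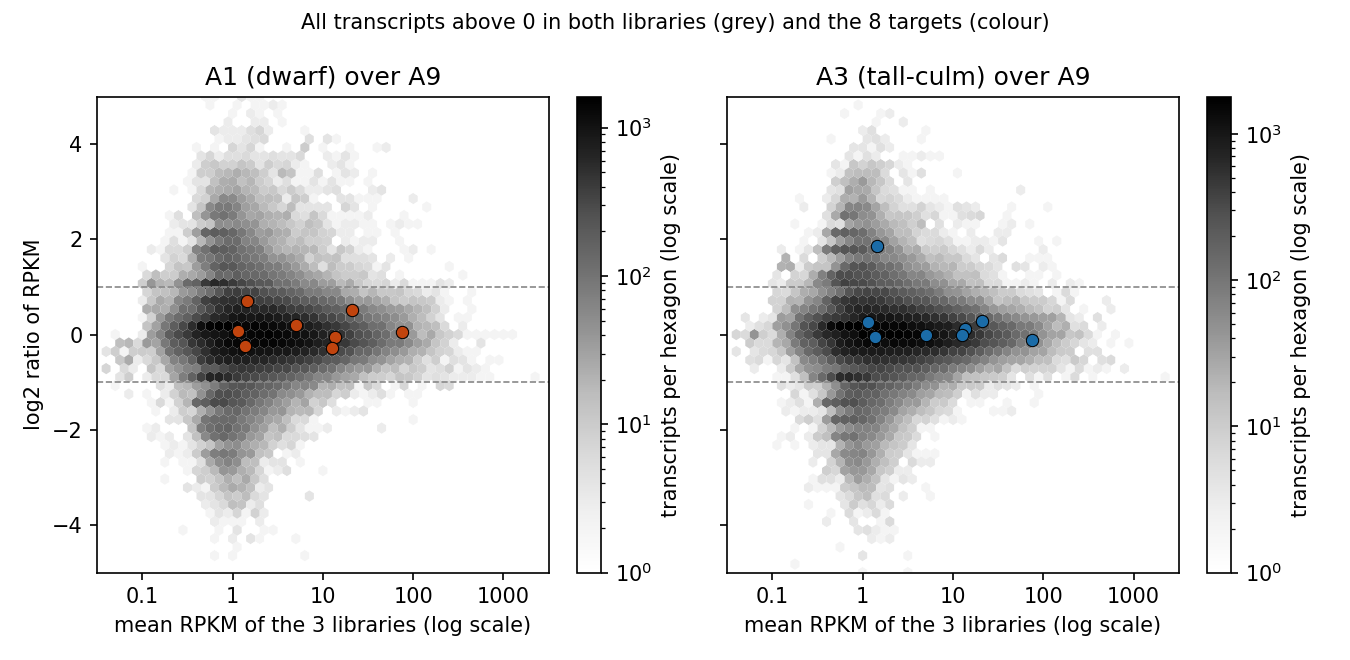
Log2 ratio of RPKM (vertical axis) against the mean RPKM of the 3 libraries (horizontal axis, logarithmic) for A1 over A9 and A3 over A9, with all transcripts above 0 in both libraries as grey hexagons shaded by their number and the 8 targets in colour. The grey cloud is widest around 1 RPKM, near where comp138319_c0_seq1 lies with its ratio of 1.86 for A3 over A9, and ratios over 5 in size are outside the axis.

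The number of reads behind comp138319_c0_seq1 was inferred. Where it could be told, RPKM times length was mostly near a whole number times 1 fixed value per library. This held for 51 of 56, 54 of 59 and 53 of 58 transcripts of listed length in A1, A3 and A9. Whether it holds for the transcripts of unlisted length was not shown. The smallest whole numbers that gave its 3 deposited values were 6, 13 and 4 for A1, A3 and A9, and the next were 12, 26 and 8. The search was checked on 33 transcripts of known length, all of at most 600 bases and chosen because their values were near whole multiples. The smallest solution was the right one for 27 of them. The next solution for comp138319_c0_seq1 needs a length of 765 to 768 bases, which that check did not cover. The exact 95% Poisson intervals of the smallest numbers were 2.20 to 13.1 in A1, 6.92 to 22.2 in A3, and 1.09 to 10.2 in A9. They overlap. At the next solution the intervals were 17.0 to 38.1 in A3 and 3.45 to 15.8 in A9, which do not overlap.

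The RPKM ratio of A3 over A9 was 3.63 for this transcript, with an exact 95% Clopper-Pearson interval of 1.12 to 15.3. At the next solution the interval was 1.59 to 9.27, and both leave out a ratio of 1. The study singled this transcript out for this same difference, so these intervals are no independent test of it. Its ratio of A1 over A9 was 1.63, with an interval of 0.387 to 7.87, or 0.614 to 4.61 at the next solution. A difference between A1 and A9 was thus not detectable at this depth. Its ratio of A1 over A3 was 0.45, with an interval of 0.140 to 1.27 at the smallest solution and 0.207 to 0.925 at the next. That interval leaves out a ratio of 1 only at the next solution. The intervals cover counting error only and hold for these libraries, not for the lines. Some listed values fell on multiples of 0.5 of that fixed value, and it is not settled if a multiple stands for a read or a pair of reads. The study sequenced paired ends, and the intervals take each multiple as an independent count. If both reads of a pair were counted, the intervals are too narrow. Whether they would then leave out a ratio of 1 was not tested.

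**Figure D4:**
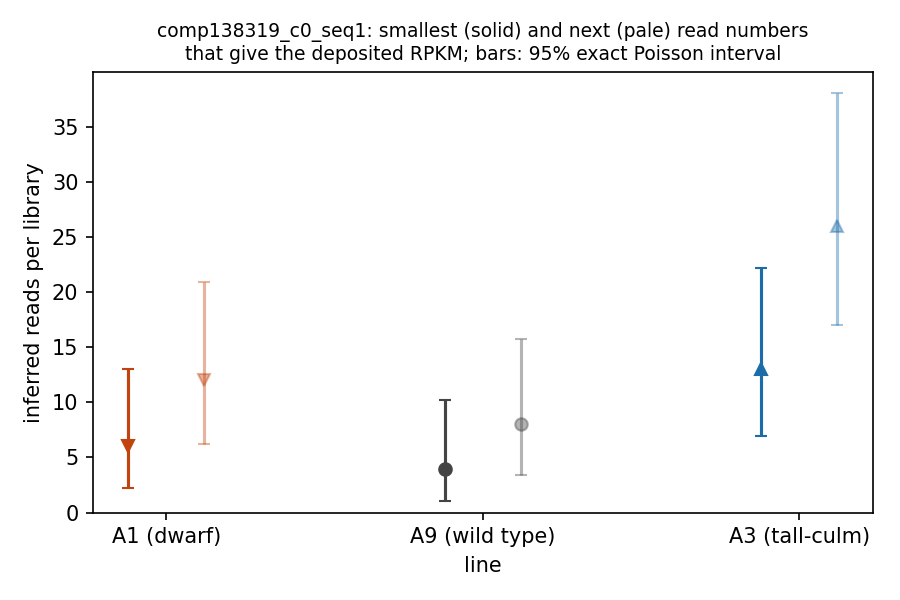
Reads inferred for the ABF transcript comp138319_c0_seq1 in each library (vertical axis), with the smallest solution in solid colour, the next in pale colour, and bars for the exact 95% Poisson interval. At the smallest solution the points are 6 in A1, 4 in A9 and 13 in A3, and all 3 bars overlap, while at the next solution the bars of A9 and A3 do not.

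Among 438 other predicted targets of any microRNA with at least 0.5 RPKM in every library, the 3 nearest to comp138319_c0_seq1 by their ratios in A1–A9 and A3–A9 together were comp170551_c0_seq1, comp108460_c0_seq1 and comp35290_c0_seq1. Their distances on the log2 scale were 0.39, 0.44 and 0.64. The RPKM values in A1, A3 and A9 were 1.06, 1.8 and 0.65 for comp170551_c0_seq1, and 1.91, 3.59 and 0.88 for comp108460_c0_seq1. For comp35290_c0_seq1 they were 2.91, 4.25 and 1.82 RPKM. All 3 are highest in A3 and lowest in A9, which follows from choosing them by nearness. Over all transcripts at this minimum, 117 of 113682 lay within 0.25 of it. Likeness over 3 libraries is a description of these values.

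The second ABF transcript, comp30734_c0_seq3, had 1.12 RPKM in A1, 1.28 RPKM in A3 and 1.07 RPKM in A9. The 3 levels were nearly equal, with log2 ratios of 0.07 in A1–A9, 0.26 in A3–A9 and -0.19 in A1–A3. In A3–A9, 60.9% of the transcripts with a mean of 1 to 2 RPKM had a ratio at least as large in size, and in A1–A9 91.3% did. It shared the order of comp138319_c0_seq1, with A3 highest and A9 lowest, at a much smaller difference.

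Its component comp30734_c0 has 4 transcripts of similar level, each with at least 20% of the sum. The other 3 were comp30734_c0_seq1 with 1.57, 1.59 and 1.2 RPKM in A1, A3 and A9, comp30734_c0_seq2 with 1.36, 1.24 and 1.14 RPKM, and comp30734_c0_seq4 with 1.29, 1.61 and 1.11 RPKM. All 4 were higher in both mutants than in A9, with log2 ratios from 0.07 to 0.39 in A1 and from 0.12 to 0.54 in A3. The sum was 5.34, 5.72 and 4.52 RPKM, which gives log2 ratios of 0.24 in A1–A9 and 0.34 in A3–A9. The predicted target comp30734_c0_seq3 held 21.0%, 22.4% and 23.7% of it in A1, A3 and A9.

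The peroxidase transcript comp44152_c0_seq7 had 1.25 RPKM in A1, 1.42 RPKM in A3 and 1.47 RPKM in A9. Its log2 ratio was -0.23 in A1–A9, -0.05 in A3–A9 and -0.18 in A1–A3, and 68.0% of transcripts of its level had a ratio at least as large in size in A1–A9. The component comp44152_c0 holds 9 transcripts, all at low level, and none reached 20% of the sum. The 2 highest others were comp44152_c0_seq2, with 1.46, 1.86 and 1.98 RPKM in A1, A3 and A9, and comp44152_c0_seq4, with 1.62, 1.84 and 1.97 RPKM. In A1, 8 of the 9 were lower than in A9, and in A3 all 9 were. The exception in A1 was the weakest, comp44152_c0_seq3, with 0.55 RPKM in A1, 0.41 RPKM in A3 and 0.51 RPKM in A9. The sum was 11.4 RPKM in A1, 13.4 RPKM in A3 and 14.2 RPKM in A9, with the dwarf mutant lowest as in the HD-ZIP component.

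**Figure D5:**
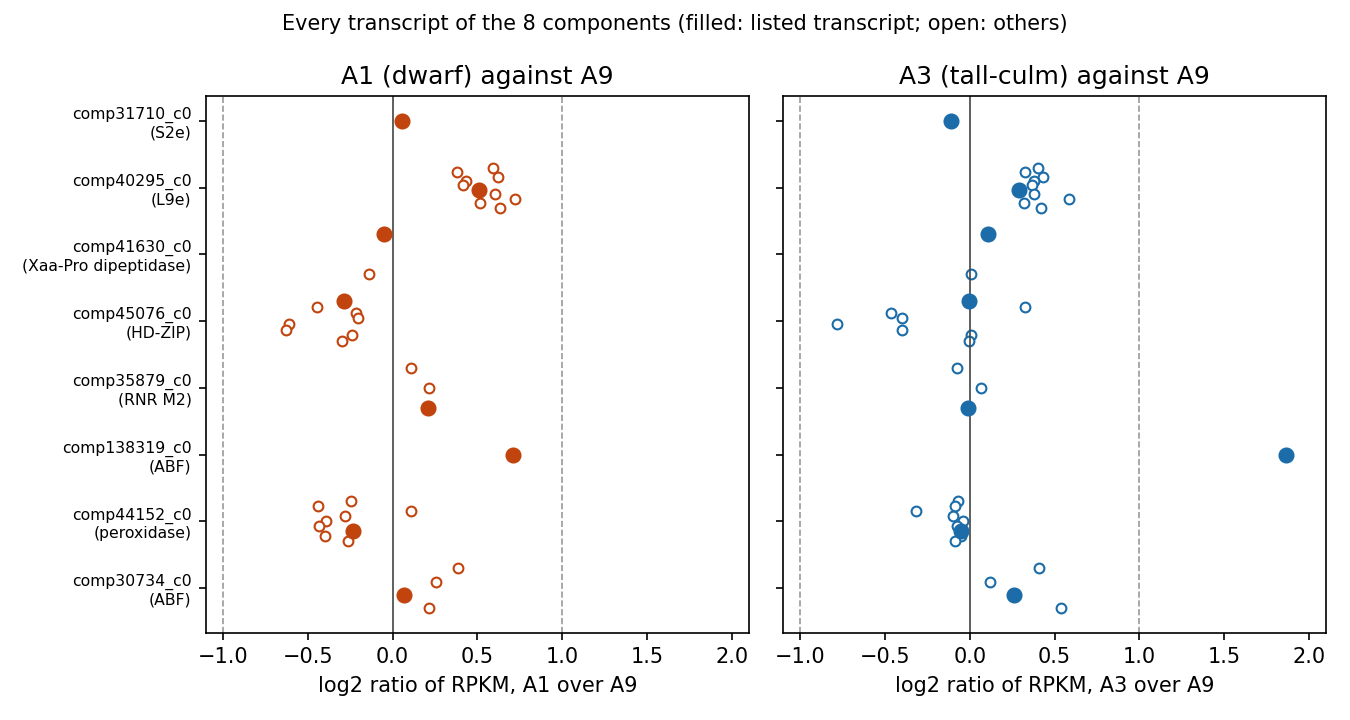
Log2 ratio of RPKM (horizontal axis) of all 38 transcripts of the 8 components, for A1 over A9 on the left and A3 over A9 on the right, with the predicted targets filled and other transcripts of the same component open. All 10 transcripts of the L9e component lie right of 0 in both panels, all 8 of the HD-ZIP component lie left of 0 in A1, and comp138319_c0_seq1 alone lies past the threshold, in A3.

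The ribonucleotide reductase M2 transcript comp35879_c0_seq3 had 5.61 RPKM in A1, 4.81 RPKM in A3 and 4.85 RPKM in A9. The log2 ratio was 0.21 in A1–A9, -0.01 in A3–A9 and 0.22 in A1–A3, so A1 was the highest line. Of the 16329 transcripts with a mean of 5 to 10 RPKM, 45.6% had a ratio at least as large in size in A1–A3. The 3 transcripts of comp35879_c0 all had their highest value in A1. They were led by comp35879_c0_seq1, with 10.79, 9.51 and 10.03 RPKM in A1, A3 and A9, and comp35879_c0_seq2 had 6.16, 5.58 and 5.32 RPKM. The predicted target was the lowest of the 3 in every library, with 24.9%, 24.2% and 24.0% of the sum in A1, A3 and A9.

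The S2e transcript comp31710_c0_seq1 had 79.93 RPKM in A1, 71.28 RPKM in A3 and 76.82 RPKM in A9. It is the 1 transcript of its component. The log2 ratio was 0.06 in A1–A9, -0.11 in A3–A9 and 0.17 in A1–A3, and 90.5% of the 1894 transcripts with a mean of at least 50 RPKM had a ratio at least as large in size in A1–A9.

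The L9e transcript comp40295_c0_seq6 had 24.48 RPKM in A1, 21.06 RPKM in A3 and 17.2 RPKM in A9. Both mutants were above the wild type, and the dwarf was above the tall-culm mutant. Its log2 ratio of 0.51 in A1–A9 was the largest of the 8 after comp138319_c0_seq1, with 0.29 in A3–A9 and 0.22 in A1–A3. Of the transcripts with a mean of 10 to 50 RPKM, 21.7% had a ratio at least as large in size in A1–A9 and 35.2% in A3–A9.

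The L9e component comp40295_c0 holds 10 transcripts, and all 10 had the order A1 above A3 above A9. The log2 ratios ran from 0.38 to 0.72 in A1–A9, from 0.29 to 0.58 in A3–A9 and from 0.05 to 0.22 in A1–A3. The component summed to 382 RPKM in A1, 347 RPKM in A3 and 260 RPKM in A9, which gives log2 ratios of 0.56 in A1–A9 and 0.42 in A3–A9. The leading transcript was not the predicted target but comp40295_c0_seq8, with 99.09, 89.98 and 60 RPKM in A1, A3 and A9, or 25.9%, 25.9% and 23.1% of the sum. The predicted target held 6.41%, 6.06% and 6.63% and ranked 9 of 10 in A1 and A3 and 8 of 10 in A9.

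The Xaa-Pro dipeptidase transcript comp41630_c0_seq1 had 12.88 RPKM in A1, 14.35 RPKM in A3 and 13.32 RPKM in A9. It was the only 1 of the 8 whose values stood in the order of plant height, A1 below A9 below A3. The log2 ratios were small, at -0.05 in A1–A9, 0.11 in A3–A9 and -0.16 in A1–A3. Its component has 1 other transcript, comp41630_c0_seq2, with 4.99, 5.52 and 5.49 RPKM in A1, A3 and A9. The predicted target held 72.1%, 72.2% and 70.8% of the sum.

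Across the 8 components, 0 of the 38 transcripts were past the threshold in A1–A9, 1 in A3–A9 and 1 in A1–A3, and both times it was comp138319_c0_seq1. Of all transcripts, 21.1%, 19.5% and 19.3% were past it in these comparisons, and 6.15%, 4.64% and 3.89% of those with at least 1 RPKM in every library. The predicted target was the highest transcript of its component in the dipeptidase component and in the 2 components that hold 1 transcript. In the other 5 components another transcript was higher in every library.

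The study's lists pair 32 other transcripts with a microRNA named miR165 or miR166. In A1–A9, 3 of the 32 were past the threshold and higher in A1, and 1 was lower. In A3–A9, 4 were higher in A3 and 4 lower, and in A1–A3, 5 were higher in A1 and 5 lower. Of all transcripts, 11.4% in A1–A9, 10.4% in A3–A9 and 9.27% in A1–A3 were past it and higher, while 9.69%, 9.13% and 10% were past it and lower. Of the 18 with at least 1 RPKM in every library, 0 were past it in any of the 3 comparisons, against 6.15%, 4.64% and 3.89% of all transcripts at that minimum in A1–A9, A3–A9 and A1–A3. Every one of the 32 past the threshold was therefore below 1 RPKM in at least 1 library. The median log2 ratio of the 32 was -0.10 in A1–A9, -0.02 in A3–A9 and -0.21 in A1–A3.

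The highest ratio of these 32 against A9 was that of comp14750_c0_seq1, with 2.43 RPKM in A1, 5.32 RPKM in A3 and 0.45 RPKM in A9. Its log2 ratio was 2.43 in A1–A9 and 3.56 in A3–A9, in the same order of lines as comp138319_c0_seq1. The lowest in A1–A9 was comp419770_c0_seq1, listed at 0 in A1, with 1.03 RPKM in A3 and 0.62 RPKM in A9. The lowest in A3–A9 was comp170643_c0_seq1, listed at 0 in A3, and it had 1.51 RPKM in the dwarf mutant and 1.9 RPKM in A9. These 2 also have the lowest and the highest ratio in A1–A3.

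Of the 32, 25 are paired only with 5p names, which belong to the opposite strand of the miR166 hairpin. They include the extremes named above, comp14750_c0_seq1, comp419770_c0_seq1 and comp170643_c0_seq1. The other 7 are paired with 3p names or names without an arm, as the 8 transcripts described first are. In A1, 6 of these 7 were lower than in A9, and 0 were past the threshold. Their median log2 ratio was -0.46, with a range from -0.89 to 0.03. With at least 1 RPKM in every library, 4 of 5 were lower, with a median of -0.29. In A3, 4 of the 7 were lower than in A9, with a median of -0.17. Of all 156846 transcripts, 78123 were lower in A1 than in A9 and 73757 were lower in A3. Of the 8 described above, 3 were lower in A1 than in A9.

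Of these 7, comp42337_c0_seq11 and comp43069_c0_seq1 are paired with the most miR165 and miR166 names, and they were singled out after their values were seen. The first, comp42337_c0_seq11, had 2.49, 4.11 and 4.63 RPKM in A1, A3 and A9, with log2 ratios of -0.89 in A1–A9 and -0.17 in A3–A9. In its component comp42337_c0, 10 of 11 transcripts were lower in A1 than in A9 and 6 of 11 were lower in A3, with sums of 26.4, 39.0 and 40.6 RPKM in A1, A3 and A9. The second, comp43069_c0_seq1, had 2.65, 2.87 and 3.89 RPKM, with log2 ratios of -0.55 in A1–A9 and -0.44 in A3–A9. In its component comp43069_c0, 2 of 2 transcripts were lower in A1 than in A9 and 1 of 2 was lower in A3. The sums were 5.71, 6.22 and 7.06 RPKM in A1, A3 and A9, with smaller log2 ratios of -0.31 in A1–A9 and -0.18 in A3–A9. Both comp42337_c0_seq11 and comp43069_c0_seq1 were lowest in the dwarf mutant and highest in the wild type.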

How the data were processed

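Messenger RNA was measured in 3 libraries of stem apexes, grouped by the genotype in their labels. After filtering, the authors made 1 Trinity assembly from all libraries and deposited 1 RPKM value per transcript, to 2 decimals. Reads per transcript, the read mapper and the counting of shared reads are not given in the sources used here. RPKM removes depth, and low values rest on few reads.

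Log2 ratios were computed with 0 replaced by 0.001 and a threshold of 1. Differences have no test, because there is 1 library per line. The constant linking RPKM times length to reads was found over 259 transcripts of listed length, at 72.2 in A1, 74.0 in A3 and 66.3 in A9. Values within 0.1 of a multiple counted as whole, which were 91.1%, 91.5% and 91.4% of those low enough to tell. If 1 multiple is 1 read, depths are 13852300, 13517200 and 15084100 reads. Lengths from 200 to 4000 bases were searched. For the other 7 transcripts several unrelated read numbers gave the same values, so none is given.

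The transcripts and lists were chosen with earlier results of these data known. Named were the 8 transcripts, others with at least 20% of a component or else the 2 highest, the extremes of the other miR165 and miR166 targets, and the 3 nearest in pattern to the transcript of largest ratio. Alternatives were 0.1 or 1 added, 2 scalings, a threshold of 2, sums per component, shares without transcripts under 0.1 RPKM, and multiples of 0.5. A further one was a minimum of 1 RPKM in at least 1 of the 2 libraries compared. On simulated data for A3 against A9 over 156846 transcripts, 200 of 200 changes of 4-fold at 10 RPKM or more were recovered and 0 of 14867 unchanged ones called. The simulation held counting error only, so it was a check of the code. It does not bear on transcripts near 1 RPKM such as comp138319_c0_seq1. Scripts ran in Python 3.11.15 with scipy 1.17.1, pandas 2.3.3, numpy 2.4.6 and matplotlib 3.10.9.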

Additional observations from a re-analysis of the deposited data

How the results depend on the processing

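The direction of every called ratio of the 8 transcripts was the same under each alternative. Of 144 ratios recomputed, 143 stayed on the same side of the threshold, and the exception was comp138319_c0_seq1 in A1–A3, at -0.72 with 1 added to every RPKM. Some of the 144 could not change. The minimum of 1 RPKM in at least 1 of the 2 libraries compared left out none of the 8. A minimum of 1 RPKM in every library would leave out comp138319_c0_seq1, at 0.69 RPKM in A9. A component with 1 transcript has a sum equal to that transcript. The ratio of comp138319_c0_seq1 ranged over the alternatives from 0.33 to 0.73 in A1–A9, from 1.05 to 1.86 in A3–A9 and from -1.15 to -0.72 in A1–A3. The number of the 8 past the threshold was 0 in A1–A3 with 1 added, and 0 in A3–A9 and 0 in A1–A3 at a log2 threshold of 2. Of the 32 other miR165 and miR166 targets, 1 was past it in A1–A9, 2 in A3–A9 and 4 in A1–A3 with 1 added, and 2, 5 and 4 at a threshold of 2. Over all transcripts these numbers were 10599, 8759 and 8445 with 1 added, and 15810, 14308 and 14421 at a threshold of 2, against 33151, 30656 and 30245. Scaling by the median ratio or the upper quartile moved the median of all transcripts by less than 0.1. The minimum of 0.1 RPKM for shares of a component left out no transcript, so it was no check of them. With multiples of 0.5 the smallest reads inferred for comp138319_c0_seq1 were the same, and the next were 9 in A1, 19.5 in A3 and 6 in A9. No paired analysis was possible because each line has 1 library, and no library could be left out. Depth limits the values near 1 RPKM, where a few reads decide a ratio.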

Other observations

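The lists of predicted targets hold 3 other ribosomal protein transcripts, paired with other microRNAs. The S17 transcript comp15825_c0_seq1 had 158 RPKM in A1, 167 RPKM in A3 and 199 RPKM in A9, and the L15 transcript comp35777_c0_seq1 had 123, 140 and 144 RPKM. Both were highest in A9, the opposite of the L9e component, in which A9 was lowest for all 10 transcripts. The L8e transcript comp16032_c0_seq1 had 5.04 RPKM in A1, 10.69 RPKM in A3 and 11.47 RPKM in A9. Its log2 ratio was -1.19 in A1–A9 and -1.08 in A1–A3, past the threshold in both, where 6.32% and 3.49% of transcripts with a mean of 5 to 10 RPKM were. The 5 ribosomal protein transcripts among the predicted targets did not share a direction in either mutant.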
